A study of Mus musculus with 12 samples.

Results

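Enteroendocrine cells are the hormone-secreting cells of the gut epithelium, and 10 genes that mark them were followed here. The genes were picked by symbol from the deposited gene table, through the GENCODE M21 mouse annotation, and all 10 were found among 53715 gene rows. They are the peptide hormone genes Gcg, Pyy, Nts, Insl5, Cck, Sct, Sst and Gip, the granule protein gene Chga and the serotonin synthesis gene Tph1. The mucosa of ileum and of colon was sequenced as RNA from male C57BL/6J mice aged 8 weeks, with 3 libraries in each of 4 groups and each library prepared from the tissue of a single mouse. Control mice are given in the sample labels as Slc39a8-fl/fl, floxed alleles without Cre, although their titles say WT and the study's methods describe a pool of control genotypes. Slc39a8-IEC KO mice carried floxed alleles with Villin-Cre, which is active in the intestinal epithelium. Slc39a8 encodes a manganese and zinc transporter, and muscle, nerve and immune cells in these samples keep the gene. Whole mucosa was used, so fewer cells of a type and less RNA per cell cannot be told apart.

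Each enteroendocrine cell makes a characteristic set of hormones, stores them in dense-core granules and releases them when nutrients, bile acids or microbial products reach its receptors. Along the mouse gut, cells producing GIP and CCK are concentrated in the upper small intestine, and cells producing neurotensin in the distal small intestine. Cells producing GLP-1 and PYY are found in both the distal small intestine and the colon, and cells producing INSL5 in the colon. Enterochromaffin cells make serotonin, D cells make somatostatin, and chromogranin A is a granule protein that many of these cell types share. Peptide hormones are made as longer precursors that convertases cut at pairs of basic residues, so that a single transcript can encode several hormones.

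The stretches below show this arrangement for 3 members. They were read from the coding sequence of GENCODE M21 transcripts (build GRCm38) and run 5′ to 3′ on the coding strand, and the capitals mark codons of adjacent lysine or arginine residues. The Gcg stretch lies in exon 4 of 6 on the minus strand (chr2:62476826-62476948, codons 90 to 130 of 180) and encodes GLP-1. The Nts stretch lies in exon 4 of 4 on the minus strand (chr10:102482349-102482423, codons 140 to 164 of 169) and encodes neuromedin N followed by neurotensin. Not every marked codon there belongs to a cut site, since AGAAGG lies within neurotensin and the capital AAA after AAGAGA opens neuromedin N. The Sst stretch lies in exon 2 of 2 on the minus strand (chr16:23889732-23889779, codons 101 to 116 of 116) and encodes the short form of somatostatin.
Gcg: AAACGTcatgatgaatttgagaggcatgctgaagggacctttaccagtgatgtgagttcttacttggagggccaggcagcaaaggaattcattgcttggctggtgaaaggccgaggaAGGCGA
Nts: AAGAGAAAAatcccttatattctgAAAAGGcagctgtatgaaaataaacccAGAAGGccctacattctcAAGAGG
Sst: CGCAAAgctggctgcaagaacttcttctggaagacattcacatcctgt

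Promoter windows from RefSeq (GRCm38.p6, 250 bases before to 50 after the annotated start) were searched on both strands for TGACGTCA, the palindromic cyclic AMP response element, for its first letters TGACG, for the TATA box form TATAAA and for the E-box form CAGATG, which can be bound by proteins of the NeuroD family. Windows were on file for all 10 members, with a pair of starts each for Pyy, Insl5 and Tph1. Of 32851 windows of this length in the table, 1.79% held TGACGTCA, 20.8% TGACG, 13.6% TATAAA and 17.2% CAGATG. Sst was the member that held TGACGTCA, 48 bases before its start, and the TGACG match at the same place overlaps it. TGACG was also found 44 bases before the start of Chga and 47 bases before the second start of Tph1, and on the opposite strand in Cck and Nts. CAGATG was found in Gcg, Insl5, Cck and Sct. No match to any of the 4 strings was found in the windows of Gip and Pyy. Windows are printed for 3 members whose transcripts were higher in colon in at least 1 genotype (Chga, Tph1 and Sst) and for 2 that were lower (Gcg and Sct), as examples of each direction. Matches are in capitals. The windows lie at chr12:102554691-102554990 on the plus strand for Chga, at chr7:46667328-46667627 on the minus strand for the second start of Tph1, at chr16:23890795-23891094 on the minus strand for Sst, at chr2:62483604-62483903 on the minus strand for Gcg and at chr7:141279084-141279383 on the minus strand for Sct.
Chga: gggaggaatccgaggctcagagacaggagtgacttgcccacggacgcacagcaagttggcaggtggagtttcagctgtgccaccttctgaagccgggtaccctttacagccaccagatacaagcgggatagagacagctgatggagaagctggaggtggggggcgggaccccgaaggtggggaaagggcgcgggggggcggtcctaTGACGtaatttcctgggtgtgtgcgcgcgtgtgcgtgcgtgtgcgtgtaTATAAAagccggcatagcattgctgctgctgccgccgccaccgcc
Tph1: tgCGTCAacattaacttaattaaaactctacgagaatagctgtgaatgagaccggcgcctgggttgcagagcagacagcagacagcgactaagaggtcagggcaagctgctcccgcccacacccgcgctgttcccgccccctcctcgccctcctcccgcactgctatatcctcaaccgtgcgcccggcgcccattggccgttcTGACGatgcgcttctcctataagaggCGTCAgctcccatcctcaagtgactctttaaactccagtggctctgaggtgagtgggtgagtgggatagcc
Sst: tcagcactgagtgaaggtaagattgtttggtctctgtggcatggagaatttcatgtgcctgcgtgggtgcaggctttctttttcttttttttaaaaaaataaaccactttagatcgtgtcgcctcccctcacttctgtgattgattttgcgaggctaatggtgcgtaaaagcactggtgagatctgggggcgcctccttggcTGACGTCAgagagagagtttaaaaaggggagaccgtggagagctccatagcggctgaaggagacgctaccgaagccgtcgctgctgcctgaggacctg
Gcg: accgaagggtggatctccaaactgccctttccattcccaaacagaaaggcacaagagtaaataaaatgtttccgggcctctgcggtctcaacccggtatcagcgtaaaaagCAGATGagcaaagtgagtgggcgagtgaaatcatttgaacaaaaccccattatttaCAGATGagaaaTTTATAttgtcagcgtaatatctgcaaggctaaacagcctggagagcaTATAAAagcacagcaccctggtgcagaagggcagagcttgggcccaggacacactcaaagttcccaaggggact
Sct: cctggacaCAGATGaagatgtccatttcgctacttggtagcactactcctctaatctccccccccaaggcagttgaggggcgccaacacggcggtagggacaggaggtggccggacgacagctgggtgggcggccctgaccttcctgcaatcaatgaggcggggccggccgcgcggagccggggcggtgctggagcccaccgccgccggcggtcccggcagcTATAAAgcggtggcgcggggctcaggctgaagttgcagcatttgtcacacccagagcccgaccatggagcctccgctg

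The libraries held 16749138 to 27903083 estimated gene counts each. Levels are given as CPM, counts brought to a common library size with trimmed mean of M values (TMM) factors, and a gene was called changed at an adjusted p below 0.1 in edgeR's quasi-likelihood test over 16558 genes. Slc39a8 was 8.38, 5.22 and 6.58 CPM in control ileum and 4.35, 2.62 and 2.79 CPM in KO ileum. In colon it was 20.8, 20.5 and 20.0 CPM in control and 7.34, 11.5 and 7.92 CPM in KO, so that the genotypes did not overlap in either tissue. Its adjusted p over both tissues was 0.382 (log2 fold change -1.13 ± 0.17 SE), above the threshold. Fabp6, an ileal bile acid carrier, was 3360 to 7105 CPM in ileum and 5.75 to 26.8 CPM in colon, and the distal gut factor Hoxa13 was at 0 in every ileal library. A single ileal library stood apart in colonic genes: ileum KO 2 had 2630 CPM of Car1 and 67.3 CPM of Aqp8, against at most 143 and 0.357 CPM in the other ileal libraries. Smooth muscle markers (6 genes) summed to 34.1 CPM in ileum control 3 and 20.1 CPM in ileum KO 1, and to between 1813 and 2641 CPM in the other ileal libraries, so values without these libraries are given where they change a result. Epithelial markers (7 genes) summed to 18354 to 22716 CPM in ileum and 9044 to 10301 CPM in colon, and all 7 were called lower in colon in both genotypes, so each tissue difference was also computed per epithelial marker level.

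Ileum and colon differed in the mixture of enteroendocrine transcripts, while their totals overlapped with TMM scaling. Per kilobase of exon, the 10 members summed to 311 to 367 CPM per kb in ileum and 270 to 451 CPM per kb in colon. Nts, which encodes neurotensin, held the largest share in every library except colon KO 1, with 31.8% to 49.7% in ileum and 23.0% to 44.9% in colon. In colon KO 1 the largest share was that of Chga. Sct, the secretin gene, held 22.2% to 31.1% in ileum and 13.9% to 18.0% in colon. Chga moved the other way, from 2.31% to 6.18% in ileum to 15.1% to 24.7% in colon. These shares do not depend on how libraries are scaled against each other, although they depend on the exon length assigned to each gene. The totals do depend on the scaling. Epithelial markers summed to 18354 to 22716 CPM in ileum and 9044 to 10301 CPM in colon, so per epithelial marker level the totals were higher in colon.

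**Figure D1:**
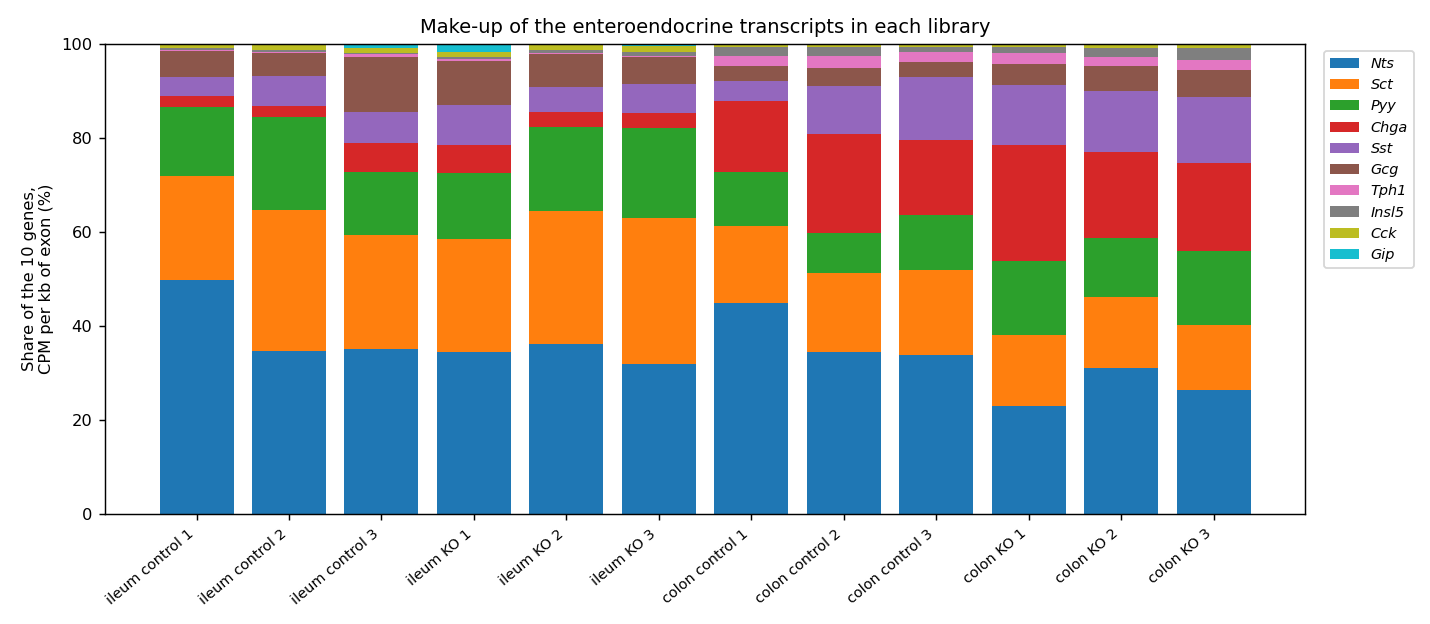
Share of each of the 10 genes in their summed level (CPM per kb of exon, in percent, vertical axis) in each of the 12 libraries (horizontal axis). Nts, Sct and Pyy fill most of each ileal bar, and the share of Chga is 15.1% to 24.7% in colon.

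In control ileum the order of levels per kilobase was Nts, Sct, Pyy, Gcg, Sst, Chga, Cck, Gip, Insl5 and Tph1. Nts was at 140 ± 34.4 CPM per kb (SD, n = 3), Sct at 89.3 ± 12.2 and Pyy at 56.2 ± 11, and these did not overlap with their neighbours. Gcg and Sst overlapped, as did Sst and Chga, and the 4 least abundant members overlapped each with the next. In control colon the order was Nts, Chga, Sct, Pyy, Sst, Gcg, Tph1, Insl5, Cck and Gip. Chga at 60.8 ± 10.7 CPM per kb and Sct at 60.4 ± 11.3 overlapped, as did Pyy and Sst, Gcg and Tph1, and Tph1 and Insl5. KO ileum had the same order as control ileum, and KO colon the same order as control colon, with Nts and Chga overlapping in KO colon.

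All 10 members passed the filter on low counts. Gip passed only through its ileal libraries, which fixes its tissue difference, so it is left out of the counts between tissues and is described without a test. In control mice 3 of the other 9 members were called higher in colon (16.2% of all genes tested were) and 3 were called lower (19.6% of all genes were). In KO mice 4 were called higher (17.1% of all genes) and 2 lower (20.0% of all genes). Their median log2 fold change was -0.026 in control and -0.28 in KO, beside 0.016 and 0.014 over all genes. Groups did not overlap for 5 of the 9 in control, where 40.7% of all genes showed this, and for 7 in KO, where 50.4% did. Called in both genotypes were Chga, Tph1 and Insl5 on the colonic side and Sct on the ileal side.

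**Figure D2:**
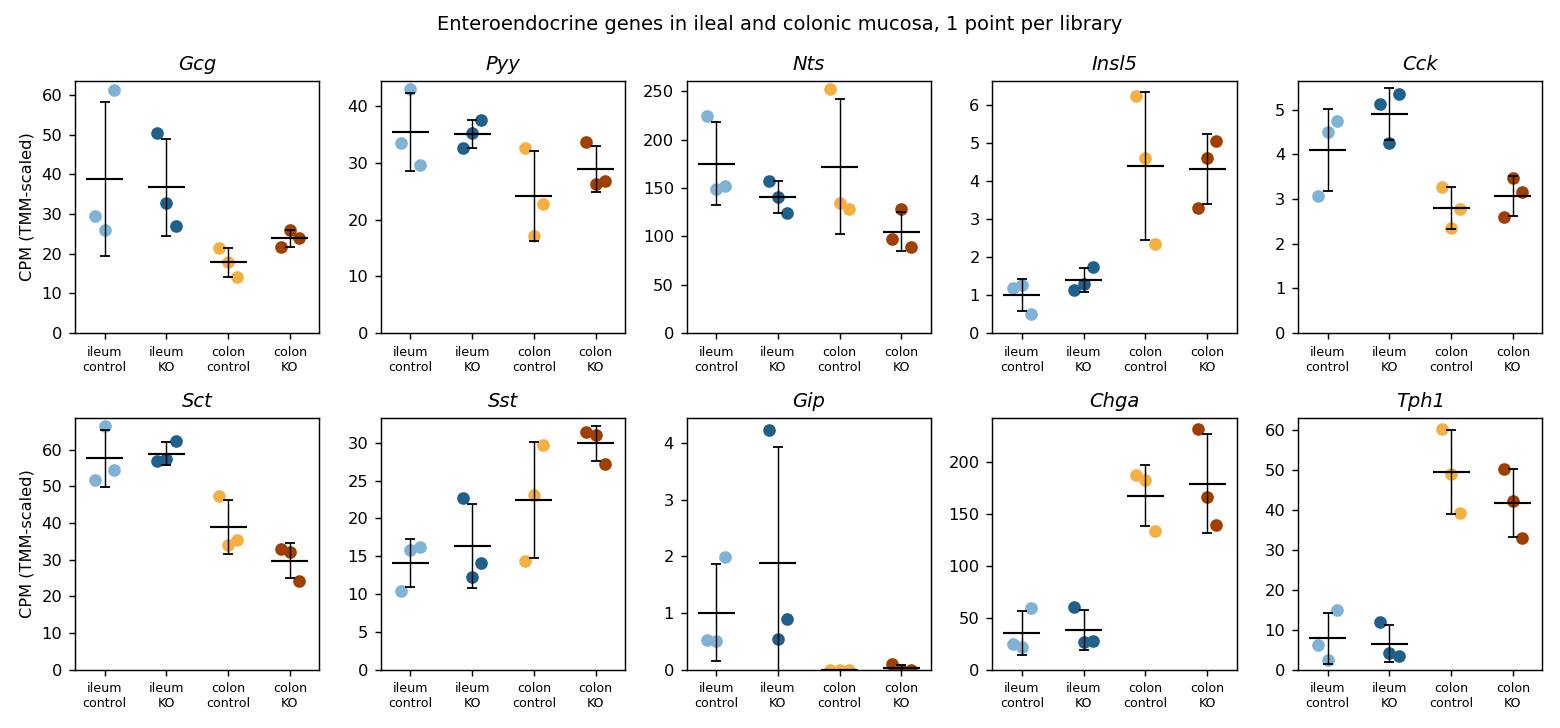
CPM (TMM-scaled, vertical axis, from 0) of each of the 10 genes in control and KO ileum and colon, with 1 point per library, a line at the mean and bars of 1 SD (clipped at 0 for Gip). Chga, Tph1 and Insl5 lie higher in every colonic library than in any ileal library, and Gip is at or near 0 in colon.

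Chga, which many enteroendocrine cell types share, and Tph1, the serotonin synthesis gene of enterochromaffin cells, were higher in colon in both genotypes. Chga, the granule protein chromogranin A (chr12:102554969-102565028, plus strand, GRCm38), was 24.4, 21.9 and 59.3 CPM in control ileum and 187, 182 and 133 CPM in control colon. In KO mice it was 60.3, 26.8 and 27.4 CPM in ileum and 232, 166 and 139 CPM in colon. Every colonic library was above every ileal library. Its log2 fold change of colon over ileum was 2.25 ± 0.42 SE in control (edgeR adjusted p = 0.00217) and 2.23 ± 0.42 in KO (adjusted p = 0.00226), and without the low-muscle ileal libraries the values were 2.84 and 2.73.

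Tph1, tryptophan hydroxylase 1, catalyses the rate-limiting step of serotonin synthesis outside the nervous system (chr7:46644641-46672537, minus strand). It was 6.25, 2.33 and 14.9 CPM in control ileum and 60.0, 48.8 and 39.1 CPM in control colon. In KO mice the values were 11.9, 4.06 and 3.55 CPM in ileum and 50.04, 42.0 and 32.8 CPM in colon. The tissues did not overlap, and the log2 fold change was 2.64 ± 0.59 SE in control (edgeR adjusted p = 0.0063) and 2.70 ± 0.60 in KO (adjusted p = 0.00579). Without the low-muscle ileal libraries it was 3.52 and 3.45.

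Mast cells also make Tph1, and their markers were compared beside it. Of 8 mast cell markers 3 passed the filter on low counts. The 8 summed to 14.5 to 27.9 CPM in ileum and 27.5 to 39.3 CPM in colon. Most of that sum was Kit, at 11.4 to 23.0 CPM in ileum and 26.5 to 38.8 CPM in colon. The protease genes Mcpt1 and Mcpt2 passed the filter only through ileal libraries, which fixes their tissue difference, and are described without a test. Mcpt1 was 0.599 to 4.29 CPM in ileum and at most 0.141 CPM in colon. Mcpt2 was 0.552 to 2.32 CPM in ileum and at most 0.051 CPM in colon. Cpa3, a protease gene of connective tissue mast cells, did not exceed 0.399 CPM in any library. Kit, which interstitial cells of Cajal also express, was called higher in colon (log2 fold change 0.90 in control and 1.33 in KO). In the low-muscle ileal libraries Kit was 23.0 and 20.1 CPM, against 11.4 to 13.0 CPM in the other ileal libraries. The cells behind the Kit levels and the part of mast cells in the difference in Tph1 were not tested.

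Insl5, the insulin-like peptide of colonic L cells (chr4:103017872-103026842, minus strand), was the scarcest of the members higher in colon, with 12 to 37 counts per ileal library and 50 to 122 per colonic library. Its levels were 1.197, 1.28 and 0.510 CPM in control ileum and 6.24, 4.601 and 2.35 CPM in control colon. They were 1.13, 1.29 and 1.75 CPM in KO ileum and 3.30, 4.61 and 5.06 CPM in KO colon. The tissues did not overlap, and the log2 fold change was 2.16 ± 0.44 SE in control (edgeR adjusted p = 0.0036) and 1.63 ± 0.43 in KO (adjusted p = 0.0143).

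Sst, which encodes somatostatin of D cells and of some enteric neurons (chr16:23889573-23890958, minus strand), was 10.4, 15.8 and 16.2 CPM in control ileum and 14.4, 23.1 and 29.6 CPM in control colon. These groups overlapped, and the log2 fold change of 0.66 ± 0.29 SE was not called (edgeR adjusted p = 0.113), although it was without ileum KO 1 or without colon control 1 (adjusted p 0.0701 and 0.0408). In KO mice it was 22.7, 12.3 and 14.1 CPM in ileum and 31.4, 31.0 and 27.2 CPM in colon. There it was called higher in colon (0.87 ± 0.29, adjusted p = 0.042), a call that was lost without ileum KO 2, ileum KO 3, colon KO 1 or colon KO 2 (adjusted p 0.107 to 0.138). Without the low-muscle ileal libraries Sst was called in both genotypes, with log2 fold changes of 0.75 in control and 1.19 in KO. Of 10 enteric neuron markers 1 was called higher in colon in control (16.2% of all genes) and 5 in KO (17.1% of all genes), 0 were called lower, and the list summed to 6.79 to 42.0 CPM in ileum and 45.8 to 97.2 CPM in colon. In the low-muscle ileal libraries 8 of these markers lay below the other 4 ileal libraries (Uchl1 at 0.127 and 0.179 CPM against 4.61 to 6.55 CPM) and 2, Ret and Chat, overlapped with them, and Sst was 16.2 and 22.7 CPM there. The part of neurons in the levels of Sst was not tested.

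Gip was nearly confined to ileum in these libraries. This gene encodes the incretin GIP of upper intestinal K cells (chr11:96024545-96030831, plus strand). It had 8, 9 and 47 counts in control ileum and 0 in each control colon library, and 71, 14 and 19 counts in KO ileum against 2, 0 and 0 in KO colon. With a floor of 3 counts over the group, Gip was at least 23.2-fold lower in control colon, and at least 10.6-fold without ileum control 3. In KO the ratio of ileum to colon was 53.0, with an exact 95% interval of 14.3 to 443 that covers counting error only, and 22.8 (5.84 to 196) without ileum KO 1. Most ileal Gip counts came from those 2 low-muscle libraries, and without them the gene did not pass the filter.

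Sct encodes secretin (chr7:141278330-141279133, minus strand). It was 51.8, 66.6 and 54.4 CPM in control ileum and 47.4, 34.1 and 35.4 CPM in control colon. In KO mice it was 56.9, 57.4 and 62.4 CPM in ileum and 33.0, 32.0 and 24.2 CPM in colon. The tissues did not overlap in either genotype, and Sct was called lower in colon with TMM scaling (log2 fold change -0.56 ± 0.17 SE in control, edgeR adjusted p = 0.0248, and -0.99 ± 0.17 in KO, adjusted p = 0.00104), while per epithelial marker level it was higher in colon, by 0.41 in control and 0.13 in KO, the first of these called. With library size alone the control value of -0.35 was not called (adjusted p = 0.104).

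The other members, which mark L, I and N cells, had tissue differences that depended on the scaling. Gcg, the precursor of GLP-1, GLP-2 and glucagon (chr2:62474530-62483650, minus strand), was 29.5, 26.0 and 61.1 CPM in control ileum and 21.4, 17.8 and 14.2 CPM in control colon. In KO mice it was 50.4, 32.6 and 27.0 CPM in ileum and 21.8, 26.0 and 23.9 CPM in colon. Neither pair of groups overlapped, and Gcg was called lower in control colon (log2 fold change -1.13 ± 0.32 SE, edgeR adjusted p = 0.0228) and not in KO (-0.61 ± 0.32, adjusted p = 0.174). Without ileum control 3 the KO value was called (-0.62, edgeR adjusted p = 0.0553), as it was with the 6 KO libraries alone (-0.61, adjusted p = 0.0849). Per epithelial marker level the values were -0.17 in control and 0.48 in KO, neither called. The change between genotypes in this tissue difference was itself not called (log2 0.51 ± 0.45 SE).

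Pyy, which encodes the appetite-reducing peptide YY of L cells (chr11:102106676-102107832, minus strand), was 33.5, 43.1 and 29.7 CPM in control ileum and 32.7, 17.1 and 22.8 CPM in control colon, with overlap. In KO mice it was 32.7, 35.2 and 37.6 CPM in ileum and 33.7, 26.3 and 26.9 CPM in colon, again with overlap. It was called lower in control colon (log2 fold change -0.55 ± 0.22 SE, edgeR adjusted p = 0.0866) and higher per epithelial marker level (0.42). That call was lost without any of 7 libraries in turn (ileum control 1 or 2, ileum KO 2 or 3, colon control 2 or 3, or colon KO 2), with adjusted p of 0.107 to 0.272. It was also lost with library size alone (adjusted p = 0.21), with the 6 control libraries alone (0.185) and with a replicate block (0.103). In KO the value was -0.28 ± 0.22 (adjusted p = 0.373).

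Cck, the gene of the satiety peptide cholecystokinin (chr9:121489824-121495694, minus strand), had 46 to 113 counts per library. It was 3.06, 4.50 and 4.76 CPM in control ileum and 3.27, 2.35 and 2.77 CPM in control colon, groups that overlapped (log2 fold change -0.55 ± 0.25 SE, edgeR adjusted p = 0.126), and without ileum control 1 the value was called (-0.73, adjusted p = 0.053). In KO mice it was 5.12, 4.26 and 5.35 CPM in ileum and 2.59, 3.47 and 3.15 CPM in colon, without overlap. It was called lower in KO colon (-0.68 ± 0.25, adjusted p = 0.0642), a call lost without ileum KO 1 or 3 or any single KO colon library (adjusted p 0.101 to 0.187). It was also lost with library size alone (0.289), without the filter (0.176) and with a replicate block (0.102), and per epithelial marker level the value was 0.45. Enteric neurons also express Cck, which was 4.76 and 5.12 CPM in the low-muscle ileal libraries, and their part in its levels was not tested.

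Nts, the neurotensin gene (chr10:102481756-102490486, minus strand), showed no called difference between tissues with TMM scaling over all 12 libraries. It was 225, 149 and 152 CPM in control ileum and 252, 135 and 129 CPM in control colon, and 157, 141 and 124 CPM in KO ileum against 97.7, 128 and 89.0 CPM in KO colon. The tissues overlapped in both genotypes, with log2 fold changes of -0.03 ± 0.27 SE in control (edgeR adjusted p = 0.953) and -0.42 ± 0.27 in KO (adjusted p = 0.261). With the 6 KO libraries alone the KO value of -0.42 was called (edgeR adjusted p = 0.0967). Without colon control 1 the control value was -0.41 and was not called. Per epithelial marker level Nts was higher in colon in both, by 0.94 and 0.69.

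**Figure D3:**
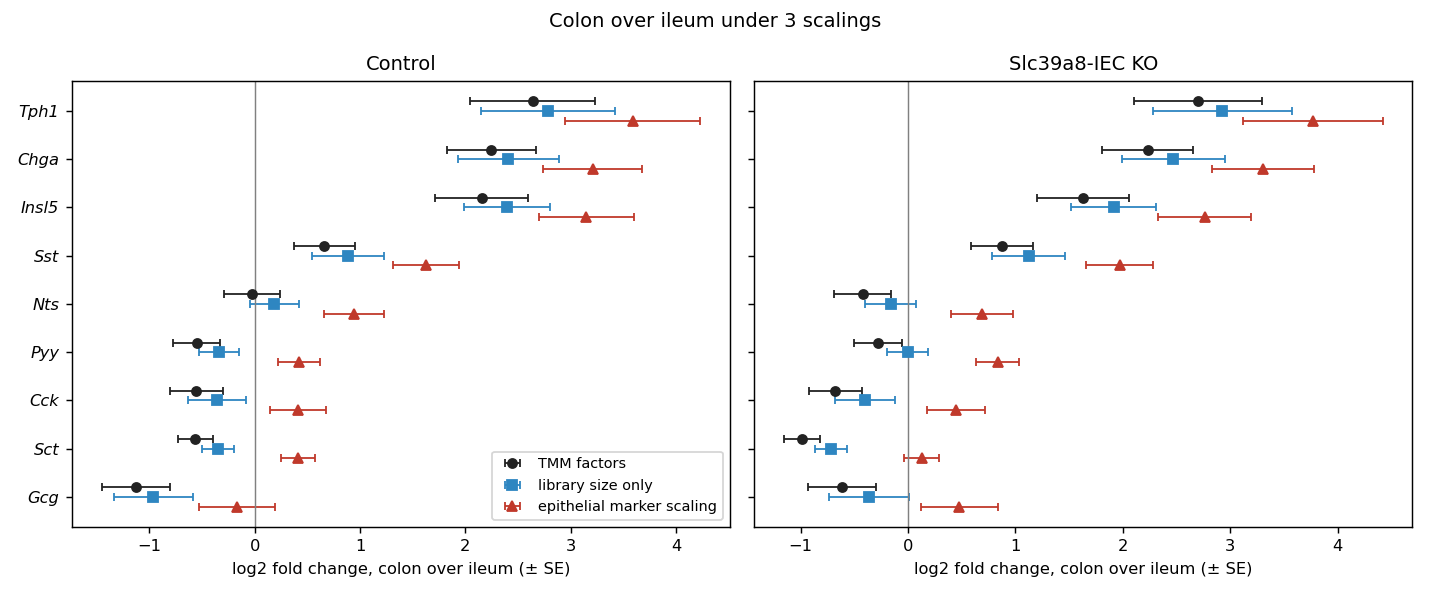
Log2 fold change of colon over ileum with its SE (horizontal axis) for 9 of the genes in control (left) and KO (right) under TMM factors, library size only and epithelial marker scaling. Gip is not drawn because its colonic counts are at or near 0. Tph1, Chga, Insl5 and Sst lie right of 0 under each of the 3, and Sct and Cck lie left of 0 under TMM factors and right of 0 under epithelial marker scaling.

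Epithelial marker scaling moved the median gene as well, to a log2 colon over ileum of 0.99 in control and 1.12 in KO, and library size alone moved it to 0.24 and 0.29. Relative to that median, Sct, Gcg, Cck, Pyy and Nts lay on the ileal side, as point values without a test. Chga, Tph1, Insl5 and Sst lay on the colonic side. A change of scaling moves every gene by nearly the same amount. These sides are therefore the same under each scaling by construction, which is no support for them. In an exact two-sided permutation test of the log2 CPM within genotype, Chga, Tph1, Insl5, Sct and Gcg each gave p = 0.005, the smallest that 400 arrangements allow (0.00833 adjusted over the 10 members). Cck gave p = 0.01, Sst 0.015, Pyy 0.03 and Nts 0.24 in the same exact test.

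Hormone levels also differed among the ileal libraries themselves. In the low-muscle libraries, ileum control 3 and ileum KO 1, the levels of Gcg, Sst, Gip, Chga and Tph1 lay above all other 4 ileal libraries, with ratios of means of 1.94, 1.48, 5.02, 2.38 and 3.30. Cck, Nts and Sct overlapped with the others, and Pyy and Insl5 lay below them. Chgb, the companion granin of Chga, was 118 and 85.9 CPM there against 33.4 to 45.0 CPM elsewhere in ileum. Neurog3, the factor that starts enteroendocrine fate, was 0.807 and 0.655 CPM against 0.133 to 0.333 CPM, and Olfm4, a crypt base stem cell gene, was 751 and 523 CPM against 105 to 181 CPM. The pair came from opposite genotypes, was set apart by muscle genes, and was compared here without a test. The part of crypt or muscle content in these hormone levels was not tested.

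**Figure D4:**
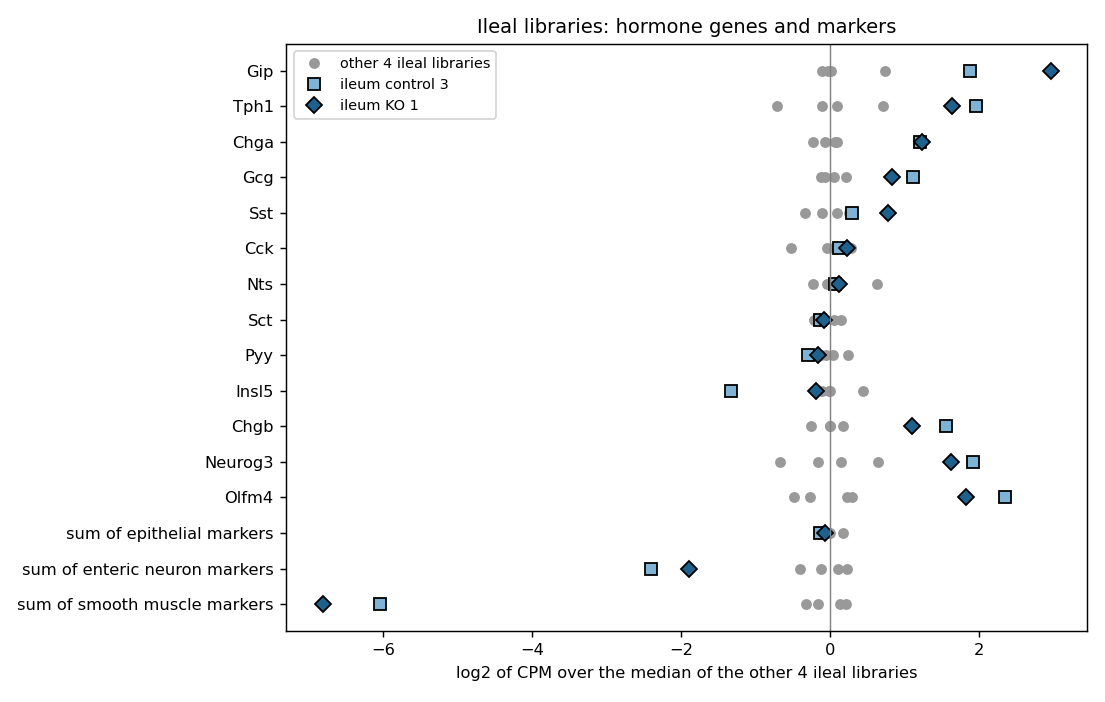
Log2 of CPM over the median of the other 4 ileal libraries (horizontal axis) for the 10 hormone genes, 3 further genes and 3 marker sums, with grey points for those 4 libraries and outlined points for ileum control 3 and ileum KO 1. Gip, Tph1, Chga and Gcg lie right of the grey points in both outlined libraries, and the neuron and smooth muscle sums lie left of them.

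Across all 12 libraries, after the mean of each tissue was subtracted, Chga was most like Gip among the members (Pearson r of log2 CPM 0.92) and next like Tph1 (0.89), and Gcg followed Chga (0.81). The lowest value was between Sst and Nts (-0.69). These values describe libraries that share dissection and depth, and the low-muscle ileal pair weighs on them. Among all other genes tested, the most like were Rrm1 (0.99) and Klb (0.96) for Gcg, Aqp11 (0.99) for Chga, and Rb1 (0.97) for Tph1.

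No member was called changed by the loss of epithelial Slc39a8. The count was 0 of 10 in ileum (0% of all genes were called), 0 of 10 in colon (0% of all genes), 0 of 10 over both tissues (0% of all genes) and 0 of 10 when the genotype effects of colon and ileum were compared (0% of all genes), by edgeR's quasi-likelihood test, and DESeq2 also called 0 members in each. At an unadjusted p below 0.05 the counts were 0 members in ileum (1.52% of all genes), 2 in colon (2.33% of all genes), 1 over both tissues (3.87% of all genes) and 0 for the comparison of the effects (1.02% of all genes). The KO over control log2 fold changes in ileum ran from -0.32 for Nts to 0.85 for Gip, with SEs of 0.16 to 0.90. The Gip value was 1.85 without ileum control 3 and -0.52 without ileum KO 1. That of Sst moved from 0.21 to -0.10 without ileum KO 1. In ileum 0 members had genotypes that did not overlap (3.70% of all genes), and in colon 3 did (12.8% of all genes): Nts, Sct and Gcg.

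Nts had the lowest unadjusted p. In colon it was 252, 135 and 129 CPM in control and 97.7, 128 and 89.0 CPM in KO, with a log2 fold change of -0.71 ± 0.27 SE (edgeR unadjusted p = 0.0211, adjusted p = 1). The highest control library was far above the rest, and without colon control 1 the value was -0.33. Over both tissues it was -0.51 ± 0.19 (edgeR adjusted p = 0.998), and the exact two-sided permutation test within tissue gave p = 0.03, or 0.3 adjusted over the 10 members.

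Sct in colon was 47.4, 34.1 and 35.4 CPM in control and 33.0, 32.0 and 24.2 CPM in KO (log2 fold change -0.39 ± 0.17 SE, edgeR unadjusted p = 0.0365, adjusted p = 1). In ileum its value was 0.03 ± 0.16. The difference between the tissues in this effect was -0.42 ± 0.23 and was not called.

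No L cell gene was called for the genotype, and neither was Chga or Tph1. Insl5 was at 0.50 ± 0.44 SE in ileum and -0.02 ± 0.41 in colon (log2 KO over control). Gcg was at -0.09 ± 0.32 SE in ileum and 0.42 ± 0.32 in colon, and Pyy at -0.01 ± 0.22 and 0.26 ± 0.22 (log2 KO over control). Chga was at 0.11 ± 0.41 and 0.09 ± 0.40, and Tph1 at -0.30 ± 0.58 and -0.24 ± 0.55. An adjusted p above the threshold does not show that the levels were alike. In ileum the sign of Chga and Tph1 turned on the low-muscle libraries: without ileum control 3 the values were 0.73 and 0.60, and without ileum KO 1 they were -0.38 and -1.05. The ileal value of Gcg was 0.41 without ileum control 3.

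**Figure D5:**
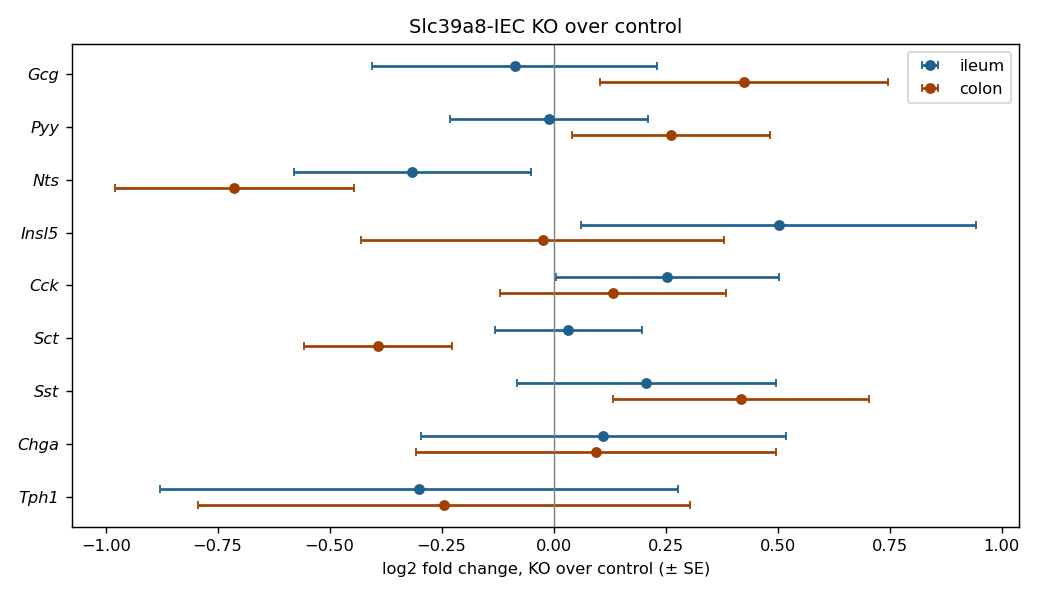
Log2 fold change of KO over control with its SE (horizontal axis) for 9 of the genes in ileum and colon. Gip is not drawn because its colonic counts are at or near 0, and no gene drawn was called in either tissue.

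The genes that build and fill hormone granules were compared in the same fits. Of 18 prohormone processing and granule genes, 8 were called higher in colon in control (16.2% of all genes) and 13 in KO (17.1% of all genes), with 0 called lower (19.6% and 20.0% of all genes), and their median log2 fold change was 0.88 and 1.52. Chgb was 33.4 to 118 CPM in ileum and 147 to 233 CPM in colon (log2 fold change 1.64 ± 0.44 SE in control, edgeR adjusted p = 0.0164). Pam, which amidates peptide hormones such as secretin and PYY, was higher in colon by 0.86 ± 0.17 in control, and Pcsk1n, an inhibitor of the convertase PCSK1, by 2.04 ± 0.31. Pcsk1 itself, the main convertase for GLP-1, was 21.3 to 34.5 CPM in ileum and 22.2 to 36.4 CPM in colon (log2 fold change -0.09 in control). Several genes of this list are also expressed in enteric neurons, whose markers were higher in colon, and their part in the list was not tested.

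Of 15 factors of enteroendocrine fate 13 were tested, with 2 called higher and 0 lower in colon in control, a share near that of all genes (16.2% higher), and 5 higher and 1 lower in KO (17.1% and 20.0% of all genes). Foxa1, which acts in enteroendocrine and goblet cells, was 24.0 to 37.7 CPM in ileum and 61.6 to 65.8 CPM in colon. Pax4, a factor of early endocrine precursors, was the other gene called in control, at a level near the detection limit in ileum (mean 0.111 CPM). It passed the filter only through colonic libraries, which fixes its tissue difference, so its call is no result. Lmx1a was also low in ileum, at 0.189 to 1.27 CPM against 0.622 to 1.69 CPM in colon. The counts in both genotypes may include such genes and are no result about the factors. Foxa1 had a log2 fold change of 1.005 ± 0.14 SE in control.

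Around Tph1, serotonin handling differed by step. Ddc, the decarboxylase that completes serotonin synthesis, was 26.7 to 42.3 CPM in ileum and 27.6 to 35.7 CPM in colon and was not called in either genotype. Slc18a1, the vesicular monoamine transporter of enterochromaffin cells, was 7.25 to 11.2 CPM in ileum and 5.43 to 8.82 CPM in colon and was not called (log2 fold change -0.23 in control and -0.42 in KO). Slc18a2, a second vesicular monoamine transporter, was called higher in colon (log2 fold change 1.003 ± 0.28 SE in control), as was Maoa, which degrades serotonin (0.93 ± 0.23). Slc6a4, the transporter that takes serotonin up into enterocytes, was 45.8 to 75.8 CPM in ileum and 2.06 to 3.81 CPM in colon, a log2 fold change of -4.47 ± 0.26 in control (edgeR adjusted p = 4.58e-07) and -4.24 ± 0.25 in KO. Tph1 and Slc6a4 thus differed in opposite directions between the tissues, under each of the 4 scalings tried. For the genotypes, 0 of the 5 tested genes of this list were called (0% of all genes).

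Receptors and the enzyme that degrades these hormones were compared last. Of 21 genes 12 passed the filter, with 5 called higher and 1 lower in colon in each genotype (all genes: 16.2% higher and 19.6% lower in control, 17.1% and 20.0% in KO). Several of the 12, among them Sstr1, Sstr2, Npy2r and Cckar, passed only through colonic libraries. That fixes their tissue difference, so the counts are no result about the receptors and these genes are described without a test. Sstr1, a somatostatin receptor, was 0.273 to 0.807 CPM in ileum and 26.4 to 41.7 CPM in colon. Sstr2 did not exceed 0.117 CPM in ileum and was 0.870 to 2.64 CPM in colon. Npy2r, a receptor for cleaved PYY, was 0.095 to 0.399 CPM in ileum and 1.79 to 3.11 CPM in colon. Dpp4, which inactivates GLP-1 and GIP, was 1441 to 2263 CPM in ileum and 38.6 to 44.5 CPM in colon (-5.43 ± 0.20 in control, edgeR adjusted p = 2.98e-08). Glp1r did not exceed 0.399 CPM in any library, and Rxfp4, the receptor for INSL5, did not exceed 0.117 CPM.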

How the data were processed

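Total RNA of ileal and colonic mucosa was sequenced in 12 libraries, 3 per group, and the groups come from the sample titles. The authors aligned the reads to mm10 with STAR (per the labels) and deposited expected counts per gene, not normalized; the study's reporting summary names FeatureCounts, while the file header calls the values expected counts, so the tool behind them is uncertain. The member genes overlapped no other annotated gene. The 92 spike-in rows held a total of 0 and were left out.

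Expected counts were rounded and fitted with edgeR 4.0.16 (R 4.3.3): filterByExpr on the 4 groups, TMM factors, the quasi-likelihood test, Benjamini-Hochberg adjustment over 16558 genes and a threshold of 0.1. Tissue contrasts and genotype contrasts within tissue came from a model of the 4 groups, and the genotype effect over both tissues from tissue plus genotype. Single members were tested by exact permutation of log2(CPM + 0.5). All 12 libraries entered each fit, at 16749138 to 27903083 counts, and intervals cover counting error only. Scripts were tested on simulated data. Alternatives were DESeq2 1.42.0, other scalings, no filter, a replicate block, a threshold of 0.05, libraries left out and a pseudocount of 0.1. Named genes were the members, genes of the marker and pathway lists, Slc39a8 and the genes most like each member by Pearson correlation. Promoters were taken from RefSeq (GRCm38.p6) and coding stretches from GENCODE M21. The members and lists were chosen with earlier results of these data known.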

Additional observations from a re-analysis of the deposited data

How the results depend on the processing

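Chga, Tph1 and Insl5 stayed called higher in colon in both genotypes under every alternative. Gip, which entered the fits only through its ileal libraries, failed the filter without the low-muscle ileal libraries and with the 6 libraries of a genotype alone. Per epithelial marker level the log2 colon over ileum of Pyy was 0.42 and of Sct 0.41 in control, and that of Cck was 0.45 and of Sct 0.13 in KO, against negative values with TMM. That scaling called 12524 genes in control and 13308 in KO, since it moves every gene upward in colon, and made 92.9% and 94.3% of calls higher in colon, against 45.3% and 46.1% with TMM and 66.4% and 70.8% with library size alone. The number of members called between tissues, Gip included, was 5 to 8 under all alternatives. For the genotype, no alternative called a member. Over all genes DESeq2 called 2 in ileum, 4 over both tissues and 1 for the difference of effects, and without the low-muscle ileal libraries edgeR called 3 in ileum and 5 over both tissues. The colonic libraries alone gave 1. With single libraries left out the counts ran from 0 to 1 in ileum and from 0 to 1 over both tissues. The cause of these changes was not tested. The same replicate number does not mark the same mouse in the labels. Deviations of same-numbered ileal and colonic libraries correlated at -0.05, 0.16 and -0.08 in control, against -0.18 to 0.16 for different numbers. In KO they correlated at 0.19, 0.05 and 0.25, against -0.21 to 0.05 for different numbers. These values do not decide whether ileum and colon came from the same mice, and the numbers were not taken as pairs. A replicate block called 6 members (Gip included) in each genotype between tissues, without Pyy in control and Cck in KO, 5333 genes in control and 5558 in KO, and 0 for the genotype.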

Other observations

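Hormones outside the 10 members were also measured. Ghrl, the ghrelin gene, was 0.998 to 2.51 CPM in ileum and 0.052 to 0.290 CPM in colon, a difference given without a test since its colonic levels are close to 0. Iapp, the amylin gene, was 0.521 to 1.31 CPM in ileum and 2.90 to 13.6 CPM in colon, with values of 3.09 ± 0.48 and 2.72 ± 0.48. Tac1, the substance P precursor of enterochromaffin cells and neurons, ranged from 5.72 to 152 CPM among the ileal libraries and was not called. The gastrin gene Gast was at 0 in every ileal library.

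Of 10 nutrient and bile acid sensors 7 were tested. Ffar4, a receptor for long-chain fatty acids, was called higher in colon in both genotypes, at 2.19 to 9.21 CPM in ileum and 11.97 to 22.4 CPM in colon (log2 fold change 1.19 ± 0.38 SE in control, edgeR adjusted p = 0.0385, and 1.90 ± 0.39 in KO, adjusted p = 0.00374). Among the genotype comparisons 0 of these 7 sensors were called by edgeR (0% of all genes). At an unadjusted p below 0.05 there was 1 in colon (2.33% of all genes) and 0 in ileum (1.52% of all genes).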
